A study of Mus musculus with 4 samples.

Results

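The genes described here are 52 genes of mitosis: the mitotic cyclins and kinases, the spindle checkpoint, the kinetochore, the chromosomal passenger complex, the spindle motors and the genes of cytokinesis. They were chosen by symbol for their known roles, and all 52 were found among the 19044 genes of the deposited count table. The cells were regulatory T cells (Treg), a Foxp3-expressing lineage of CD4 cells that holds immune responses in check, from the spleen and peripheral lymph nodes of mice given no treatment. There were 4 groups, sequenced with 1 library each: aTreg and rTreg of Ripk1fl/fl Foxp3-YFP-Cre mice, and aTreg and rTreg of Foxp3-YFP-Cre mice. All groups thus carry Foxp3-YFP-Cre, a Cre recombinase driven by Foxp3 and marked with a yellow fluorescent protein, and only the knockout groups carry the floxed Ripk1 gene, which Cre acts on in Foxp3-expressing cells. The labels do not spell out a and r, which in this field stand for activated and resting. The sources used here give neither the gate that separated them nor the age, sex or number of mice behind a library. With 1 library a group there is no replicate, and a difference between 2 libraries may lie between mice or between preparations.

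Cells enter mitosis when CDK1, bound to cyclin A or B, becomes active. The chromosomes then condense, kinetochores attach them to the spindle, and a checkpoint holds the cell until all are attached. CDC20 then switches on the anaphase-promoting complex, which marks cyclin B and securin for destruction, sister chromatids separate and the cell divides. Most of the 52 mRNAs are made late in the cell cycle and are scarce in cells at rest, so in T cells they are used as markers of division. In bulk RNA, more dividing cells and more mRNA per dividing cell cannot be told apart. RIPK1, a kinase and scaffold downstream of death receptors, is the gene whose loss the study set out to examine.

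The libraries held between 17588754 and 20868319 counts, and levels are given as CPM, the usual read count scaled to library size, with TMM factors applied to the totals. For a gene with no read the upper limit is 3 counts, or 0.143 to 0.17 CPM. Ripk1 was at 80.8 CPM in aTreg and 84.7 CPM in rTreg labelled knockout, against 77.5 CPM in WT aTreg and 83.6 CPM in WT rTreg. Its counts over the whole gene did not pass edgeR's additive test of genotype (log2 change 0.039, adjusted p = 0.657), and the sources used here do not say which exons are floxed. The libraries are therefore named KO-labelled, after their labels. Foxp3 was between 619 and 693 CPM in the 4 libraries, and 6 Treg markers summed to 3429 and 3431 CPM in KO-labelled aTreg and rTreg, against 3367 and 3071 CPM in WT aTreg and rTreg. Xist, the RNA of the inactive X chromosome, had 4 and 5 counts in the KO-labelled libraries and 6955 and 6271 counts in the WT libraries, while the Y-linked Ddx3y was at 97.4 to 126 CPM in all of them, so the sex of the mice and their genotype cannot be told apart in these comparisons. Among markers of other cell types, the immunoglobulin gene Igkc (16 and 20.7 CPM in KO-labelled aTreg and rTreg, against 1.51 and 1.0 CPM in WT aTreg and rTreg) and the globin gene Hba-a1 (7.25 and 7.44 CPM, against 0.68 and 0.238 CPM) were higher in the KO-labelled libraries. Summed over the list, the 8 B cell markers were at 727 and 770.1 CPM in KO-labelled aTreg and rTreg, against 605 and 358 CPM in WT aTreg and rTreg, nearly all of it Ighm. The 7 erythroid markers summed to 11.7 and 11.2 CPM, against 2.09 and 1.62 CPM in the same order of libraries. The single markers did not all go 1 way. Of the B cell markers 5 were higher and 3 lower in KO-labelled than in WT aTreg, and in rTreg 7 were higher and 1 lower. Of the erythroid markers 4 were higher and 3 lower in aTreg, and in rTreg 4 were higher and 2 lower. The part of these markers in the results was not tested.

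The promoters are shown first, because many genes of G2 and mitosis are known to share a promoter element. The cell cycle genes homology region (CHR) is a hexamer near the transcription start of many G2 and M phase genes. It is bound by the MuvB complex, which with p130 and E2F4 (the DREAM complex) represses the genes at rest and with B-MYB and FOXM1 activates them late in the cycle. The CCAAT box is bound by NF-Y. RefSeq promoter windows on GRCm38.p6, from 250 bases before to 50 after the start, were at hand for 42 of the 52 genes, as 45 windows. A CHR hexamer (TTTGAA or TTCGAA, both strands) was found in 36 of the 45 windows, which is 80%, against 19.2% of all 32851 windows. CCAAT on either strand was found in 36 windows (80%), against 37.4% of all windows. Both were present in 68.9% of the windows of these genes, against 7.52% of all. A CHR hexamer beginning within 50 bases of the start, a range chosen after the matches were seen, was present in 34 windows (75.6%), against 5.31% of all. The E2F-like GCGGGAA, on either strand, was in none of the 45 windows and in 4.6% of all windows. None of the motifs contains another, though neighbouring matches may share an end letter. Among windows of the tested genes 14% held a CHR hexamer. A match is a description of letters and not a site shown to be bound.

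The 150 bases before the transcription start of 9 genes follow, 5′ to 3′ on the strand of the gene, with CHR hexamers and CCAAT boxes of either strand in capitals. These genes are cyclins, kinases, genes of anaphase and division markers, and the stretches show only the elements that lie before the start. Positions are relative to the RefSeq start, +1 being its first base.

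Ccnb1, chr13:100786487-100786636, minus strand: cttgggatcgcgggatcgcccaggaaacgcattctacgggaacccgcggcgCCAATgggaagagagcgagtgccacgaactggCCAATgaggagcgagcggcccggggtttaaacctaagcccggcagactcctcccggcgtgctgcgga

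Ccnb2, chr9:70421555-70421704, minus strand: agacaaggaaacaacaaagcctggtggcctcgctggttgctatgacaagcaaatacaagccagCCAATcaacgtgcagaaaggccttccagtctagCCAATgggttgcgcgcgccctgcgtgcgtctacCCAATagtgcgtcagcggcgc

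Cdk1, chr10:69352913-69353062, minus strand: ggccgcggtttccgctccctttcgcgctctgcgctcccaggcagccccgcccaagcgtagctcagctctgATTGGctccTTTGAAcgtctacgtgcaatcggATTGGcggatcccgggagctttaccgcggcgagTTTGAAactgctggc

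Cdc20, chr4:118437344-118437493, minus strand: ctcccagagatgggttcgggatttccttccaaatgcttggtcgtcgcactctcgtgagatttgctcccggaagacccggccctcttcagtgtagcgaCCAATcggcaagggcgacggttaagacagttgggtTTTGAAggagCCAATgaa

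Plk1, chr7:122159285-122159434, plus strand: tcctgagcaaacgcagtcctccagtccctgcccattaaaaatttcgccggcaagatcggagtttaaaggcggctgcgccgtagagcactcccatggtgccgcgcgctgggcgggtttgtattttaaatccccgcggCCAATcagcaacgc

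Birc5, chr11:117849087-117849236, plus strand: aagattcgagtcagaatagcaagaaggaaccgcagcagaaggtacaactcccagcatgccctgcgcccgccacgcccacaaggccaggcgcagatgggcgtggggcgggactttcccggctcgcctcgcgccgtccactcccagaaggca

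Ube2c, chr2:164769779-164769928, plus strand: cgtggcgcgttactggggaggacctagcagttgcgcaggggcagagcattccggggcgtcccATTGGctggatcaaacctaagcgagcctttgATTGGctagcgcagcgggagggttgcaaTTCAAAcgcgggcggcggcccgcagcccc

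Top2a, chr11:99024190-99024339, minus strand: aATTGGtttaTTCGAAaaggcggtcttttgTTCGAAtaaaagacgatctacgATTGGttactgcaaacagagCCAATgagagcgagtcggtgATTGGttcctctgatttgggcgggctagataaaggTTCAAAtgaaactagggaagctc

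Mki67, chr7:135716380-135716529, minus strand: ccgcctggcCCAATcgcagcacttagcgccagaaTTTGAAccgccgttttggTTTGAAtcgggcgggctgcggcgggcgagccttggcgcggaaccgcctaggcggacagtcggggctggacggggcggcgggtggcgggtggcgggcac

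In Cdk1, Cdc20, Ube2c and Top2a a CHR hexamer stands within the last 30 bases before the start, with 1 or more CCAAT boxes upstream of it. In Ccnb2 and Plk1 the hexamer lies just after the start, its first base at +5 in Ccnb2 and at +31 in Plk1, outside the stretch shown (Ccnb2 has another at −167). Mki67 has a pair farther upstream. Ccnb1 has CCAAT boxes only and Birc5 has neither in the window, which says only that these letters are not there.

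**Figure D1:**
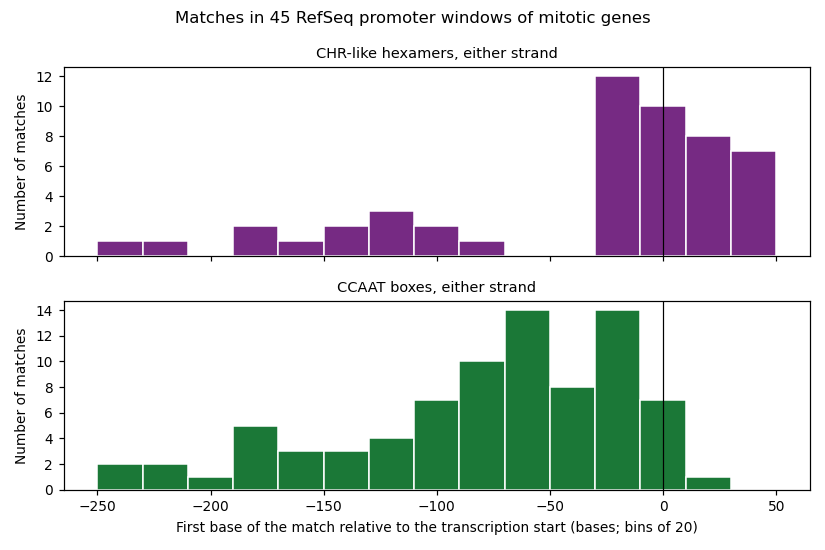
Positions of CHR hexamers (top) and CCAAT boxes (bottom) in the 45 promoter windows of 42 mitotic genes, as the first base of each match relative to the transcription start, in bins of 20 bases. CHR matches gather around the start and CCAAT boxes gather just upstream of it.

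All 52 genes were lowest in WT aTreg, as were 26.4% of all tested genes, and in 50 of them both KO-labelled libraries lay above both WT libraries, an order that 33.2% of all 9680 tested genes shared. The exceptions were Nek2 and Kif11, which are both scarce. In all of those 50 genes WT rTreg was the second lowest, an order found in 18.4% of tested genes. Among the 52 genes, KO-labelled rTreg was the highest library for 38 (23.5% of all tested genes) and KO-labelled aTreg for 13 (27.1%). Summed, the 52 mRNAs made up 2960.3 CPM in KO-labelled aTreg and 3219 CPM in KO-labelled rTreg, against 902 CPM in WT aTreg and 1458 CPM in WT rTreg. Mki67, the most read gene of the list, and Top2a gave a large part of this. Without both the sums were 2040.4 and 2170.1 CPM in KO-labelled aTreg and rTreg, against 692 and 1076 CPM in WT aTreg and rTreg, the same order of libraries.

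**Figure D2:**
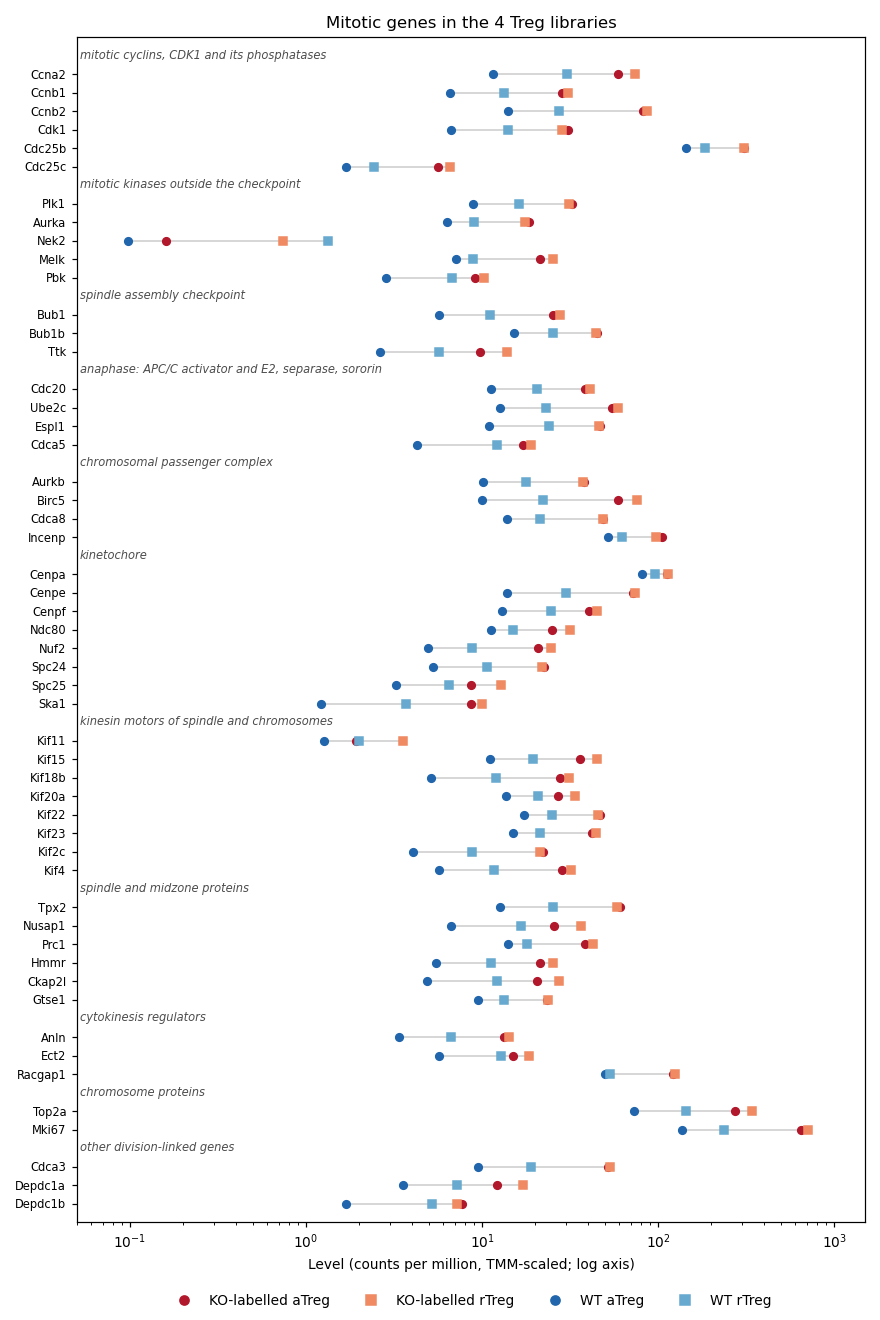
Level of each of the 52 genes in CPM (log axis) in the 4 libraries, grouped by role. Red symbols are KO-labelled and blue symbols WT libraries, circles aTreg and squares rTreg, with 1 library each. WT aTreg is the lowest in every row, and Nek2, at 0.097 to 1.33 CPM, does not follow the other rows.

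Genotype was compared within each state as the log2 ratio of the KO-labelled library over WT. In aTreg the median over the 52 genes was 1.87, against 0.0015 over all tested genes. All 52 ratios lay above 0, as did 50.2% of those of tested genes, with 49.8% below, and 48 genes were at least 2-fold higher in the KO-labelled library, where 3.95% of tested genes were. None was 2-fold lower, as were 2.17% of tested genes. In rTreg the median was 1.14, against 0.0076 over all tested genes, and 51 ratios lay above 0, as did 50.8% of those of tested genes, with 49.2% below. In rTreg 34 genes were at least 2-fold higher, where 3.41% of tested genes were, and none lower, against 1.34% of tested genes. Every gene 2-fold higher in rTreg was so in aTreg as well, and 14 passed 2-fold in aTreg alone. The 4 genes below 2-fold in both states were Nek2, Cenpa, Kif11 and Kif20a.

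Across states, edgeR's quasi-likelihood test with state and genotype as additive terms was run on the 9680 genes that averaged 5 CPM or more over the 4 libraries, with p-values adjusted over all of them. It has 1 residual degree of freedom, so its error is the spread of these libraries around additivity and need not hold the spread between mice. Of the 52 genes, 49 reached the level minimum and all 49 rose in the KO-labelled libraries at an adjusted p under 0.05, which 24.5% of tested genes did, with 22.9% called lower. The adjusted p ran from 4.66e-08 for Racgap1 to 0.00841 for Depdc1b in edgeR. A gene that is low in WT can pass the minimum through the KO-labelled libraries alone, and 38 of the 52 were at 5 CPM or more in both WT libraries. Cdc25c, Nek2 and Kif11 were below the minimum and were not tested. With genotype alone and the states as replicates of each other, edgeR called 34 of the 49 genes higher, and 9.65% of all tested genes.

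**Figure D3:**
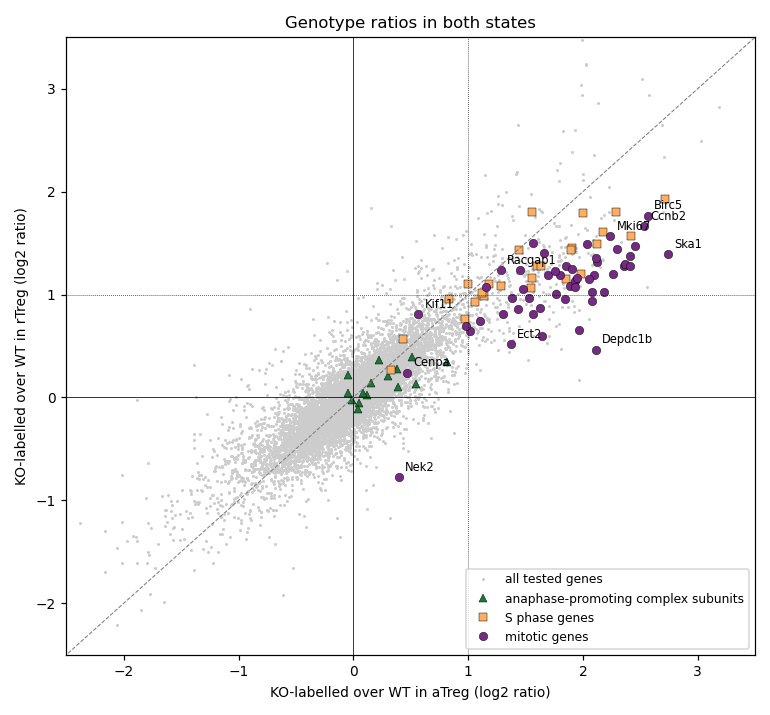
Log2 ratio of the KO-labelled library over WT in aTreg (x axis) and in rTreg (y axis). Purple circles are the 52 mitotic genes, orange squares S phase genes, green triangles genes of the anaphase-promoting complex and grey points all tested genes. Solid lines mark 0, dotted lines 2-fold and the dashed line equal ratios, and 11 tested genes lie beyond the axes. Most purple circles lie below the dashed line, with larger ratios in aTreg.

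Among the cyclins and the kinase they activate, all 6 genes had positive ratios in both states. Ccnb2, a B-type cyclin (chromosome 9, 70407692 to 70421547, minus strand), was at 81.8 CPM in KO-labelled aTreg and 87.0 CPM in KO-labelled rTreg, against 14.1 CPM in WT aTreg and 27.4 CPM in WT rTreg. The KO-labelled libraries lay close together and far above both WT libraries. The ratio was 2.53 in aTreg [2.36 to 2.72] and 1.66 in rTreg [1.53 to 1.81], where brackets here and below hold 95% counting intervals, which cover counting error only, and edgeR's additive test gave a log2 change of 2.07 (SE 0.147, adjusted p = 2.54e-07). Ccna2, the cyclin of S and G2 phase (chromosome 3, 36564865 to 36572150, minus strand), was at 59.3 CPM in KO-labelled aTreg and 73.8 CPM in KO-labelled rTreg, against 11.5 CPM in WT aTreg and 30.4 CPM in WT rTreg. Its ratio was 2.36 [2.16 to 2.57] in aTreg and 1.28 [1.14 to 1.42] in rTreg. Ccnb1, the cyclin that carries CDK1 into mitosis, was at 28.6 and 30.6 CPM in KO-labelled aTreg and rTreg, against 6.6 and 13.3 CPM in WT aTreg and rTreg. Cdk1 itself (chromosome 10, 69335146 to 69352938, minus strand) was at 30.9 and 28.5 CPM in the KO-labelled libraries, against 6.7 and 14.0 CPM in the WT libraries in the same order, so here KO-labelled aTreg was the highest. Of the phosphatases that switch CDK1 on, Cdc25b differed less (1.11 and 0.74 in aTreg and rTreg) and started from a high level in WT (144 and 184 CPM in aTreg and rTreg). Cdc25c had ratios of 1.66 and 1.40 from 35 and 51 counts in WT aTreg and rTreg.

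Of the mitotic kinases, Plk1, which acts from mitotic entry to cytokinesis, had ratios of 1.84 [1.61 to 2.10] in aTreg and 0.95 [0.76 to 1.16] in rTreg. It was at 32.3 and 31.4 CPM in KO-labelled aTreg and rTreg, against 8.93 and 16.2 CPM in WT aTreg and rTreg. Aurka, the kinase of the spindle poles, was at 18.4 and 17.6 CPM in the KO-labelled libraries, against 6.31 and 8.96 CPM in the WT libraries. Melk and Pbk, kinases high in dividing cells, parted in rTreg, with ratios of 1.5 for Melk and 0.60 for Pbk, and were alike in aTreg (1.56 and 1.64). Nek2, a centrosome kinase, was read only 3 times in KO-labelled aTreg and 13 times in KO-labelled rTreg, against 2 times in WT aTreg and 28 times in WT rTreg. Both aTreg libraries were near the limit of detection, and the intervals of its genotype ratio held 0 in both states, [−2.41 to 4.30] in aTreg and [−1.93 to 0.14] in rTreg.

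All 3 genes of the spindle assembly checkpoint rose. Bub1, a checkpoint kinase that loads other checkpoint proteins on kinetochores, was at 25.3 and 27.7 CPM in KO-labelled aTreg and rTreg, against 5.73 and 11.1 CPM in WT aTreg and rTreg. Its ratios were 2.12 in aTreg and 1.32 in rTreg. Bub1b, which encodes the CDC20 inhibitor BUBR1, had ratios of 1.57 and 0.81, and Ttk, the MPS1 kinase, 1.86 and 1.28. On the other side of the checkpoint, Cdc20, the activator of the anaphase-promoting complex (chromosome 4, 118432901 to 118437352, minus strand), was at 38.6 and 41.1 CPM in KO-labelled aTreg and rTreg, against 11.3 and 20.4 CPM in WT aTreg and rTreg. Ube2c, the ubiquitin-conjugating enzyme of that complex, had ratios of 2.11 and 1.36, and Espl1, the separase that cuts cohesin, 2.08 and 0.93. Cdca5, which encodes sororin, a protector of cohesion, had the same pattern at 1.97 and 0.65. Genes that hold anaphase back and genes that start it thus shifted the same way with genotype. Each of these 7 was called higher by edgeR's additive fit, as were 24.5% of all tested genes, while 22.9% were called lower.

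The subunits of the chromosomal passenger complex differed among themselves. Birc5, which encodes survivin (chromosome 11, 117849251 to 117855743, plus strand), was at 59.4 CPM in KO-labelled aTreg and 75.7 CPM in KO-labelled rTreg, against 9.95 CPM in WT aTreg and 22.2 CPM in WT rTreg. That is 5.92-fold in aTreg (log2 2.57 [2.36 to 2.80]) and 3.40-fold in rTreg (log2 1.77 [1.62 to 1.93]). No other member had a higher ratio in rTreg, and edgeR's additive test gave 2.13 (SE 0.147, adjusted p = 2.14e-07). Aurkb, the kinase of the complex, was at 37.8 and 37.5 CPM in KO-labelled aTreg and rTreg, against 10.1 and 17.7 CPM in WT aTreg and rTreg. Cdca8, which encodes borealin, had ratios of 1.80 and 1.19. Incenp, the scaffold that binds the other subunits, had the lowest ratios of the complex, 1.01 [0.91 to 1.12] in aTreg and 0.65 [0.55 to 0.76] in rTreg, and was already at 52 and 62.1 CPM in WT aTreg and rTreg.

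Kinetochore genes spanned the widest range of any role group in aTreg. Ska1, a subunit of the complex that holds kinetochores on microtubule ends (chromosome 18, 74195299 to 74207818, minus strand), had 163 counts in KO-labelled aTreg and 175 counts in KO-labelled rTreg, against 25 counts in WT aTreg and 78 counts in WT rTreg. Its ratio in aTreg, 2.74 [2.23 to 3.51], was the highest of the 52 genes, and in rTreg it was 1.39 [1.03 to 1.82]. Cenpa, the histone H3 variant that marks centromeres (chromosome 5, 30666777 to 30674830, plus strand), lay at the other end. It was at 113 CPM in KO-labelled aTreg and 114 CPM in KO-labelled rTreg, against 81.3 CPM in WT aTreg and 96.2 CPM in WT rTreg, with ratios of 0.47 [0.38 to 0.57] and 0.24 [0.15 to 0.33]. Its counting intervals exclude 0, and it rose in edgeR's additive test by 0.36 (SE 0.0729, adjusted p = 0.00134). The 4 subunits of the NDC80 complex, the microtubule-binding rod of the kinetochore, had ratios in aTreg of 1.16 for Ndc80, 2.04 for Nuf2, 2.08 for Spc24 and 1.38 for Spc25, and in rTreg of 1.07, 1.49, 1.03 and 0.96 in the same order. The counting intervals in aTreg were [0.93 to 1.40] for Ndc80, [1.74 to 2.39] for Nuf2, [1.79 to 2.42] for Spc24 and [0.99 to 1.84] for Spc25. That of Ndc80 overlapped neither that of Nuf2 nor that of Spc24, and the other pairs overlapped. In rTreg the intervals of Ndc80 [0.88 to 1.28] and Nuf2 [1.25 to 1.76] overlapped. The intervals cover counting error only, and differences between the subunits were not tested. Cenpe, a kinesin-like motor of the kinetochore, had ratios of 2.37 and 1.30, and Cenpf 1.63 and 0.87.

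Among the motors, Kif2c, the microtubule-depolymerising kinesin of centromeres, had ratios of 2.41 and 1.28 in aTreg and rTreg and Kif18b, which acts on microtubule plus ends, 2.41 and 1.37. Kif2c was at 22.1 and 21.4 CPM in KO-labelled aTreg and rTreg, against 4.08 and 8.77 CPM in WT aTreg and rTreg. Kif4, a chromosome-bound kinesin encoded on the X chromosome, had ratios of 2.30 and 1.45, Kif15 1.70 and 1.19, Kif23, a motor of the central spindle, 1.47 and 1.06, and Kif22 1.43 and 0.86. Kif20a, which carries Aurora B to the midzone, had the lowest ratios of the tested motors, 0.98 [0.77 to 1.20] and 0.70 [0.52 to 0.88]. It shares 29.3% of its exon bases with Cdc23 on the opposite strand, which was between 49.7 and 53.1 CPM in the 4 libraries, so its value is uncertain. Kif11, the motor that pushes the spindle poles apart, was at 1.92 and 3.58 CPM in KO-labelled aTreg and rTreg, against 1.26 and 2.0 CPM in WT aTreg and rTreg. At 26 to 63 counts its ratio was 0.57 [−0.16 to 1.39] in aTreg and 0.81 [0.25 to 1.44] in rTreg.

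In the spindle and cytokinesis genes WT aTreg was the lowest library and WT rTreg the next. Tpx2, the activator of Aurora A on the spindle, was at 60.8 and 58.3 CPM in KO-labelled aTreg and rTreg, against 12.6 and 25.3 CPM in WT aTreg and rTreg. Nusap1 (1.93 and 1.14), Hmmr (1.95 and 1.16), Ckap2l (2.05 and 1.15), Prc1 (1.45 and 1.24) and Gtse1 (1.30 and 0.81) had ratios below the 2.26 of Tpx2 in aTreg, each given for aTreg and then rTreg. Racgap1, a subunit of centralspindlin, was at 121 and 125 CPM in KO-labelled aTreg and rTreg, against 49.7 and 53.2 CPM in WT aTreg and rTreg, so its WT libraries lay close together. Its ratios were nearly the same in both states, 1.29 [1.18 to 1.39] in aTreg and 1.23 [1.13 to 1.34] in rTreg. Ect2, the exchange factor that centralspindlin recruits, differed by 1.38 in aTreg and 0.52 in rTreg, and Anln, a scaffold of the contractile ring, by 1.93 and 1.08.

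Mki67, which encodes the chromosome-surface protein Ki-67 (chromosome 7, 135689784 to 135716361, minus strand), had the most counts of the list. It was at 647 CPM in KO-labelled aTreg and 706 CPM in KO-labelled rTreg, against 137 CPM in WT aTreg and 238 CPM in WT rTreg. Its ratio was 2.24 [2.18 to 2.30] in aTreg and 1.57 [1.52 to 1.62] in rTreg, and edgeR's additive test gave 1.90 (SE 0.119, adjusted p = 1.14e-07). Top2a, the topoisomerase that untangles chromosomes, was at 272 and 343 CPM in KO-labelled aTreg and rTreg, against 72.7 and 144 CPM in WT aTreg and rTreg. Cdca3, a trigger of mitotic entry, had ratios of 2.45 and 1.48 and Depdc1a 1.75 and 1.23. Depdc1b, a relative of Depdc1a, had 144 and 127 counts in KO-labelled aTreg and rTreg, against 35 and 109 counts in WT aTreg and rTreg, so that its WT aTreg library lay far below the other libraries.

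State was compared within each genotype as the log2 ratio of aTreg over rTreg. In the KO-labelled pair the median over the 52 genes was −0.13, against 0.0037 over all tested genes, with 39 genes below 0, where 49.4% of tested genes were, and 13 above, where 50.6% were. Only Nek2, with 3 and 13 counts, was 2-fold lower, as were 0.134% of tested genes, and none was 2-fold higher, as were 0.95%. In the WT pair the median was −0.95, against 0.00038 over all tested genes, all 52 genes were below 0, where 49.9% of tested genes were and 50.1% were above, and 22 were at least 2-fold lower, where 0.723% of tested genes were. None was 2-fold higher, as were 1.87% of tested genes. The lowest after Nek2 were Depdc1b (−1.56 [−2.21 to −1.05]), Ska1 (−1.54 [−2.33 to −0.95]), Cdca5 (−1.48 [−1.87 to −1.15]) and Ccna2 (−1.39 [−1.62 to −1.18]). The genes closest to 0 were Racgap1 (−0.10), Cenpa (−0.24) and Incenp (−0.26). In the KO-labelled pair the counting interval held 0 for 32 of the 52 genes, as for 51.2% of tested genes, and in the WT pair for 4 (Cdc25c, Melk, Kif11 and Racgap1), as for 49.4% of tested genes.

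Over both genotypes 13 of the 49 tested genes were called lower in aTreg by the additive fit of edgeR and none higher, where 5.5% of tested genes were called lower and 8% higher. Top2a fell by 0.64 (SE 0.112, edgeR adjusted p = 0.00196), Nusap1 by 0.85 (SE 0.167, 0.00407), Birc5 by 0.67 (SE 0.144, 0.00709) and Ccna2 by 0.77 (SE 0.174, 0.00972). Ttk, Cenpf, Spc25, Kif15, Kif20a, Ckap2l, Ect2, Mki67 and Depdc1a also fell. In this fit a difference of the state ratio between genotypes enters the error. The count rests on the tool: DESeq2 with the same terms called 3 of the 49 lower and 1.38% of all tested genes. With state alone edgeR called 0 of the 49 and 0% of all tested genes, and 0 of the 49 had an unadjusted p under 0.05, as did 3.39% of all tested genes.

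The genotype ratio was larger in aTreg than in rTreg for 51 of the 52 genes, by a median of 0.78 log2 units, against 0.00086 over all tested genes, of which 50.1% had the larger ratio in aTreg. With 4 libraries this difference uses up every degree of freedom and was not tested, and it equals by arithmetic the difference between the 2 state ratios. Its counting interval lay above 0 for 44 genes (16.9% of all tested genes), held 0 for 8 (66.3%) and lay below 0 for none (16.8%). It was largest in Depdc1b (1.64), Ska1 (1.35), Cdca5 (1.31) and Nek2 (1.17), the last from few counts. It was smallest in Kif11 (−0.24), Racgap1 (0.051), Melk (0.058) and Ndc80 (0.082). In Cdk1, with a difference of 1.16, the KO-labelled libraries lay close together and WT aTreg lay far below WT rTreg. Its state ratio in the KO-labelled pair, 0.11, was the highest of the 52 genes, of which 39 lay below 0 there.

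**Figure D4:**
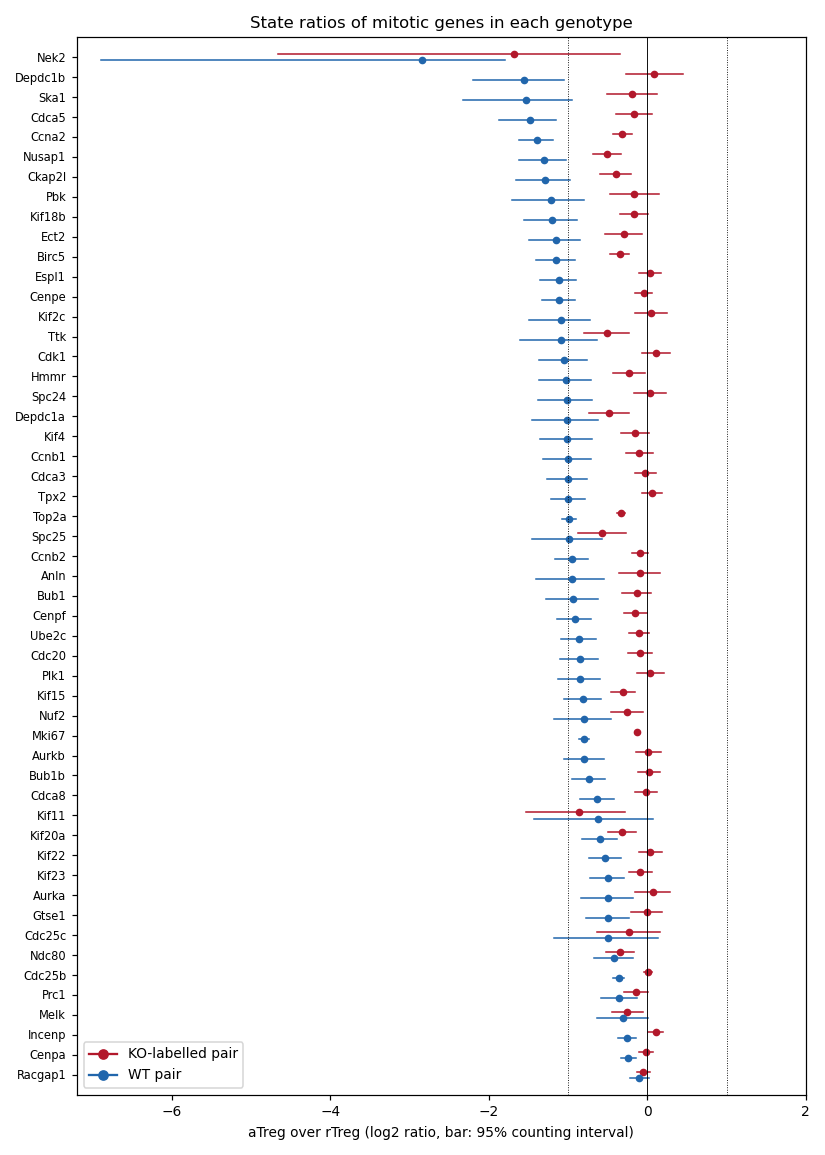
Log2 ratio of aTreg over rTreg for each of the 52 genes in the KO-labelled pair (red) and the WT pair (blue), ordered by the WT ratio, with 95% counting intervals as bars. Dotted lines mark 2-fold. All blue points lie below 0 and most red intervals reach 0 or lie close to it.

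Other genes of the mitotic machinery fell into lists that differed from the 52 genes in size. Of 17 further G2/M regulators in the table, 16 were tested and all 16 rose with genotype in edgeR's additive test, with medians of 0.84 in aTreg and 0.82 in rTreg. Foxm1, the transcription factor of many of these genes, was at 63.8 and 66.4 CPM in KO-labelled aTreg and rTreg, against 18.7 and 32.1 CPM in WT aTreg and rTreg, and Mybl2, its partner B-MYB, had ratios of 1.81 and 1.33. Of 34 further kinetochore and checkpoint genes, 29 were tested, 21 rose and none fell, with medians of 1.02 and 0.79 and the centromere gene Cenpm at 2.45 and 1.47. Of 23 further motor and spindle genes, 22 were tested, 19 rose and 1, Numa1, fell, with medians of 0.93 and 0.65 and Ckap2 at 2.09 and 1.39. Of 19 condensin and cohesin genes, all tested, 10 rose and 2, Smc4 and Nipbl, fell, where 24.5% of all tested genes rose and 22.9% fell, with medians of 0.32 and 0.22. Ncaph, a condensin I subunit, had ratios of 1.94 and 1.45, Ncapg2, a condensin II subunit, 2.16 and 1.35 and Esco2, a cohesin acetyltransferase of S phase, 2.27 and 1.72.

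The lists of the anaphase-promoting complex and of the MuvB and DREAM complexes had small median ratios. Foxm1 and Mybl2, whose products act with MuvB, were counted above among the further G2/M regulators and are not in these lists. The list of the anaphase-promoting complex held 15 genes, its subunits and the activator gene Fzr1, and all were tested. Of these, 5 rose with genotype, where 24.5% of all tested genes rose, none fell and none was 2-fold apart. The medians were 0.15 in aTreg and 0.13 in rTreg. Anapc5 was at 286 and 319 CPM in KO-labelled aTreg and rTreg, against 200.3 and 243 CPM in WT aTreg and rTreg. Its partner Cdc20, among the 52 genes, had ratios of 1.77 and 1.0. Of 12 genes of the MuvB and DREAM complexes and their relatives, 11 were tested, 5 rose and 1, E2f5, fell, with medians of 0.15 and 0.15, beside the 24.5% of all tested genes that rose. Tfdp1, a partner of E2F factors, had ratios of 0.86 and 0.73, and Mybl1, a relative of B-MYB below the level minimum, 1.64 and 1.51. The share of promoter windows with a CHR hexamer was 53.8% for the further G2/M regulators, 52.4% for the further motors and spindle genes, 50% for condensin and cohesin, 44.4% for the further kinetochore genes, 36.4% for the MuvB and DREAM list, 20% for S phase genes and 11.8% for the anaphase-promoting complex. It was 19.2% for all windows and 14% for windows of the tested genes. These lists have only 11 to 36 windows each. Of the 26 S phase genes, 25 were tested and all 25 rose with genotype, with medians of 1.55 in aTreg and 1.18 in rTreg. Their state ratio in WT had a median of −0.30 and none was 2-fold lower. The genotype difference between states had a median of 0.27 over S phase genes, against 0.78 over the 52 mitotic genes, a contrast between lists that was not tested.

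**Figure D5:**
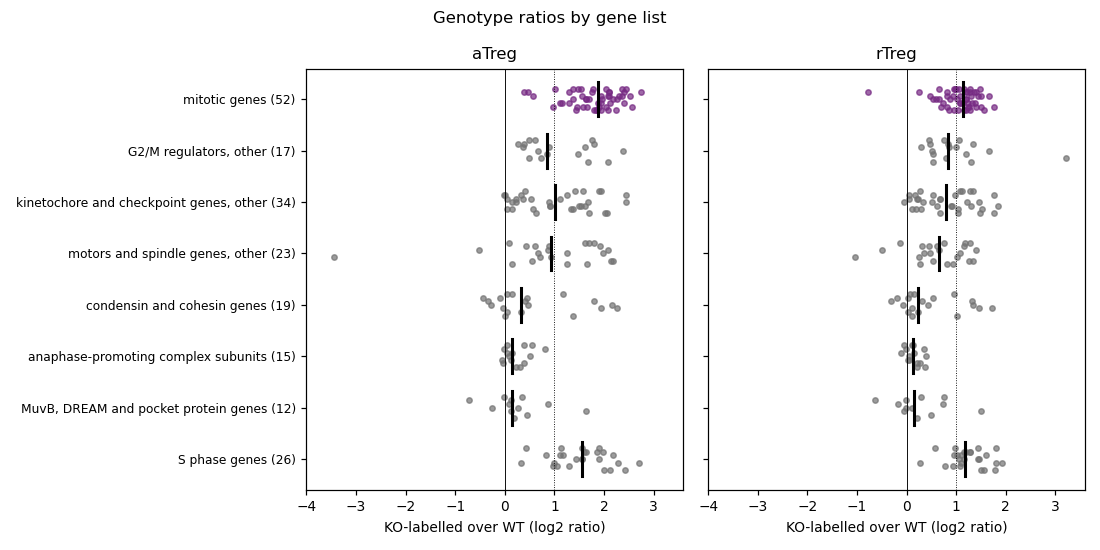
Log2 ratios of the KO-labelled library over WT in aTreg (left) and rTreg (right) for the 52 mitotic genes and for other gene lists, 1 point per gene with the number of genes in brackets. Black bars are medians and dotted lines 2-fold. The median of the mitotic genes is 1.87 in aTreg and 1.14 in rTreg, and that of the anaphase-promoting complex 0.15 and 0.13.

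In the authors' deposited table, which compares the genotypes over the same libraries, 44 of the 51 mitotic genes with an adjusted p were higher in the KO-labelled libraries at an adjusted p under 0.05, as were 9.61% of its genes. In the authors' deposited table the 7 that missed it were Ccna2, Pbk, Cdca5, Cenpa, Kif11, Ect2 and Depdc1b. Since it uses the same libraries, it is no separate evidence. The sources used here do not say whether reads were assigned by strand, and without strand the reads of a gene and of its antisense neighbour cannot be told apart. In GENCODE M21, 6 of the 52 genes share over 10% of their exon bases with a gene on the opposite strand. Besides Kif20a they are Ube2c, Kif4, Cdc25c, Ccna2 and Prc1. Exosc9, the neighbour of Ccna2, was between 15.1 and 18.6 CPM in all libraries. Pdzd11, the neighbour of Kif4, was at 18.9 and 18.5 CPM in KO-labelled aTreg and rTreg, against 8.98 and 11.7 CPM in WT aTreg and rTreg.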

How the data were processed

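Per the labels' protocols, TRIzol was used for the RNA and a SMARTer mRNA kit for the libraries. The submitters' processing notes name GRCm38, the aligner HISAT2 (version 2.2.1) and the counter featureCounts (version 2.0.1), while annotation and strand setting are not stated there. The deposited table holds raw counts for 19044 gene symbols. A second deposited table holds variance-stabilised values on a log2-like scale, used as an alternative. Per the file headers it also has a mean signal per gene, the authors' log2 fold change (WT over knockout) with its error, a score (the fold change over its error) and p-values.

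Levels are CPM with TMM factors of edgeR 4.0.16 (R 4.3.3), computed on the 9680 genes that averaged 5 CPM or more (99.31% of counts). Log2 ratios use a prior count of 2, and intervals are exact binomial intervals on the counts without it, except that the interval of the difference between states uses a normal approximation to the counts. With 1 library a group no p-value was given for a single contrast. The additive edgeR fit had a biological coefficient of variation of 6.66%. Adjusted p-values are Benjamini-Hochberg over all tested genes, and "rose" and "fell" are used of called genes. Lists are described by counts and medians. Genes given with all 4 values were a core set, the extremes of each contrast and of each role, and genes below the minimum. The members, lists and rules were chosen with earlier results of these data known. PCR copies are not independent molecules, so intervals and floors cover counting error only. Gene positions are from GENCODE M21 and promoters from RefSeq, both on GRCm38. Some single markers are not reported here. Marker lists were summed per library (CPM in KO-labelled aTreg and rTreg, then WT aTreg and rTreg). Germinal centre B cell markers (4 in the table) summed to 67.2 and 70.7, then 66.0 and 61.8, plasma cell markers (8) to 179 and 160.1, then 123 and 93.4, monocyte markers (6) to 15.3 and 18.7, then 14.1 and 14.3. Neutrophil markers (6) summed to 2.13 and 3.80, then 0.922 and 0.143, dendritic cell markers (4) to 5.38 and 3.12, then 3.01 and 0.953, CD8 T cell markers (2) to 9.65 and 12.9, then 7.82 and 10.5, NK cell markers (2) to 7.35 and 7.27, then 2.91 and 2.19, and thymocyte markers (4) to 35.4 and 37.4, then 46.3 and 51.5.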

Additional observations from a re-analysis of the deposited data

Results flagged for a closer look

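For 13 of the 52 genes the log2 ratio of aTreg over rTreg lay above 0 in the KO-labelled pair and below 0 in the WT pair, as did, in one direction or the other, the ratios of 3014 of the 9680 tested genes. The ratios in the KO-labelled pair and the WT pair were Cdk1 (0.11 and −1.05), Cdc25b (0.0084 and −0.36), Plk1 (0.040 and −0.85), Aurka (0.067 and −0.50), Bub1b (0.020 and −0.74), Espl1 (0.032 and −1.12), Aurkb (0.012 and −0.79). For the others they were Incenp (0.11 and −0.26), Spc24 (0.033 and −1.02), Kif22 (0.040 and −0.53), Kif2c (0.043 and −1.09), Tpx2 (0.060 and −0.99) and Depdc1b (0.089 and −1.56). The counting interval excluded 0 on both sides only for Incenp, and the difference was not tested. The KO-over-WT ratio of Nek2 was 0.39 in aTreg and −0.77 in rTreg, from 2 to 28 counts, and this difference was not tested either.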

How the results depend on the processing

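Medians and counts kept their direction under every scaling, level minimum and prior count tried. Among the medians, the exceptions in size came only with the authors' variance-stabilised values, a scale on which ratios of low counts shrink by construction. Whether this accounts for the smaller values was not tested. With the variance-stabilised values the median genotype ratio was 0.98 in aTreg and 0.64 in rTreg, and the median state ratio in WT −0.42. The median difference of the genotype ratio between states was 0.33. The genes at least 2-fold apart numbered 22 and 5 for genotype in aTreg and rTreg and 0 for state in WT. The share of all tested genes 2-fold apart was not counted on that scale. Genes 2-fold apart between states in the KO-labelled pair, 1 with the settings reported (Nek2), numbered 0 with those values, with a prior count of 10, with a minimum of 1 CPM and over the 49 genes that reached 5 CPM on average, the last chosen after seeing the data. Genes called for state, all lower in aTreg, numbered 34 with no filter, where 52 were tested, 3 with DESeq2 and 0 with state alone. Under the other settings they numbered between 12 and 19. Of all genes, 793 of 19044 were called lower with no filter, 134 of 9680 with DESeq2 and 0 with state alone. The other settings called 519 to 617 of 9680, and 595 of 11810 with a minimum of 1 CPM. The cause was not tested. For genotype 49 or 50 were called under every setting but 34 with genotype alone. Of all genes, 2827 of 19044 were called higher with no filter, 1370 of 9680 with DESeq2 and 934 of 9680 with genotype alone. The other settings called 2045 to 2369 of 9680, and 2583 of 11810. Of 1856 values of single genes and contrasts, 138 moved beyond their counting interval, 137 of them with the variance-stabilised values, and no ratio of 2-fold or more changed sign. No paired analysis was possible because each group has 1 library with no replicate number, beyond the additive fit itself, which compares the genotypes within state. Leaving out a library leaves no residual degree of freedom. Depth limits Nek2, Kif11 and Cdc25c most.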

Other observations

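Plk4 and Haus1, genes of the mitotic apparatus outside the 52, stood out. Haus1 did not follow the order of the libraries, while Plk4 followed it with 1 library far above the others. Plk4, the kinase that starts centriole duplication, had 11 counts in KO-labelled aTreg and 85 counts in KO-labelled rTreg, against 8 counts in WT aTreg and 9 counts in WT rTreg, so that 1 library stood apart. Haus1, a subunit of the augmin complex that branches spindle microtubules, had 2 and 4 counts in KO-labelled aTreg and rTreg, against 45 and 12 counts in WT aTreg and rTreg, a log2 ratio of −3.45 in aTreg. Of the other augmin subunits listed, Haus4 had ratios of 0.56 and 0.53 in aTreg and rTreg, Haus6 0.15 and 0.26 and Haus8 0.083 and −0.14. Both genes lie under the level minimum and were not tested.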
